A study of Rattus norvegicus with 12 samples.

Results

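The nuclear genes of oxidative phosphorylation were examined in adult rat ventricular myocytes (ARVMs) that overexpressed NR4A2. They were taken by the start of the gene symbol, as all rows named Nduf, Sdha to Sdhd, Uqcr, Cyc1, Cycs, Cox4 to Cox8 or Atp5. This rule used no measured value, and it found 94 transcripts with 89 gene names among 18752 transcripts and 17301 names. Of the 89 genes, 77 encode subunits of complexes I to V, 1 (Cycs) encodes cytochrome c, and 7 encode assembly factors that share the Nduf or Cox stem. The other 4 (Ndufa10l1, Cox6c-ps1, Atp5s and Atp5sl) only share the symbol. Ndufa4 and Ndufa4l2, which carry a complex I name, were counted with complex IV, where Ndufa4 protein resides. Cox6b1, Cox7a1, Cox7b2 and the subunits that mitochondrial DNA encodes were not analysed here.

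The cells were ventricular myocytes from Sprague Dawley rat hearts, kept as primary cultures. In 6 samples they received an adenovirus that expresses green fluorescent protein (Ad-GFP), and in 6 samples an adenovirus with the human NR4A2 cDNA under the CMV promoter (Ad-h-NR4A2). Both viruses were used at 50 MOI, and RNA was taken 48 h later without a change of medium. All samples therefore received an adenovirus, and the transgene is human whereas the reads were counted on rat transcripts. Each sample carries a number from 24 to 29 that occurs once in each group, and samples with the same number deviated together.

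Oxidative phosphorylation makes most of the ATP of a cardiomyocyte. Complexes I and II pass electrons from NADH and succinate to ubiquinone, complex III passes them on to cytochrome c, and complex IV gives them to oxygen. Complexes I, III and IV pump protons across the inner mitochondrial membrane, and complex V, the ATP synthase, uses their return to make ATP. NR4A2 is an orphan nuclear receptor that can bind DNA as a monomer, and the ERR nuclear receptors drive many of these genes in the heart.

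The Nr4a2 row was read first as a check of the labels. Its FPKM (fragment count scaled by transcript length and library depth) was 0.626 at the lowest, 0.787 at the median and 1.4 at the highest in Ad-GFP samples. In Ad-h-NR4A2 samples it was 445, 533 and 592, so that the groups did not overlap and each sample went with its label (log2 fold change 9.10 ± 0.17, SE). The depth recovered from the low values ranged from 18800000 to 28000000 fragments in Ad-GFP samples and from 21500000 to 27300000 in Ad-h-NR4A2 samples. Of 10950 genes above 0 in all 12 samples, 4484 (40.9%) passed an adjusted p of 0.05 in limma on log2(FPKM + 0.1), as 19.3% of all genes rose and 21.7% fell. A ratio of group means of at least 1.5 in addition left 15.2%. With the sample number as a block in the fit, 59.4% passed, 27.1% upward and 32.3% downward.

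Few oxidative phosphorylation genes passed without the sample number in the fit and more passed with it, mostly by small changes. Of the 86 genes tested, 3 rose without the number, none fell, and none of the 3 reached the limit of 1.5 for the ratio of means. On a TPM scale 4 rose and 4 fell, and after quantile normalization 5 rose and 5 fell. With 1 sample left out the rises numbered 3 to 10, with 10 without Ad-h-NR4A2 sample 28, 7 without Ad-h-NR4A2 sample 24, 6 without Ad-GFP sample 27 and 5 without Ad-GFP sample 24. The 3 genes are 3.49% of the genes tested, beside 40.9% over all genes. They are Ndufa7 and Ndufaf1 of complex I and Atp5d of complex V. By limma, 16 of the 86 had an unadjusted p below 0.05. With the sample number in the fit, 34 genes passed, 22 upward and 12 downward, which is 39.5% beside 59.4% over all genes. The 34 include the 3 genes called without the number, and 21 of them differed by at least 0.1 on the log2 scale. Genes named below for a call made with the number in the fit were, in part, chosen after their values were seen.

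Most members are highly expressed, so genes of high level were read beside them. Among the 1049 genes with a mean of at least 100 FPKM, 42.1% passed without the sample number and 67.5% with it. The median log2 fold change was 0.03 over the 86 members and -0.02 over all genes tested, and 49 members were above 0 and 37 below. The middle of the members lay between -0.05 and 0.08 (quartiles), whereas the quartiles of all genes were -0.22 and 0.17. In no member were the 2 groups free of overlap, compared with 21.5% of all genes. In 31 members (36.0%) all 6 same-numbered pairs moved one way, 18 upward and 13 downward, compared with 53.2% of all genes.

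The precision was enough to bound most members. The median standard error of a member was 0.06 on the log2 scale, and 0.03 with the sample number in the fit. The 95% interval of limma lay within a 1.2-fold change in either direction for 69 of 86 members (80.2%), for 23.8% of all genes and for 52.4% of the genes of at least 100 FPKM. It lay within a 1.5-fold change for 82 members. The 4 members outside are Ndufs6, Atp5f1, Cox4i2 and Ndufa4l2, all with a mean under 10 FPKM.

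**Figure D1:**
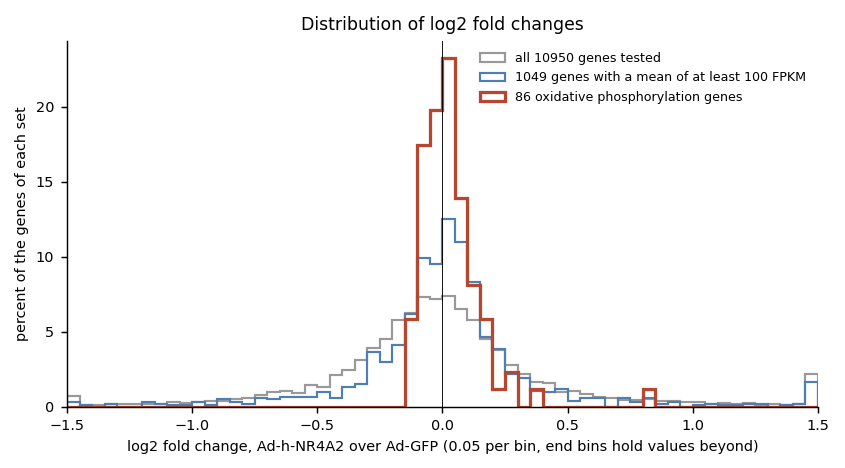
Distribution of log2 fold changes (x axis, Ad-h-NR4A2 over Ad-GFP) as percent of the genes in each set (y axis), for all 10950 genes tested, the 1049 genes with a mean of at least 100 FPKM and the 86 oxidative phosphorylation genes. The members form the narrowest of the 3 curves, with quartiles of -0.05 and 0.08, and 1 member (Ndufs6) lies apart at 0.83.

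**Figure D2:**
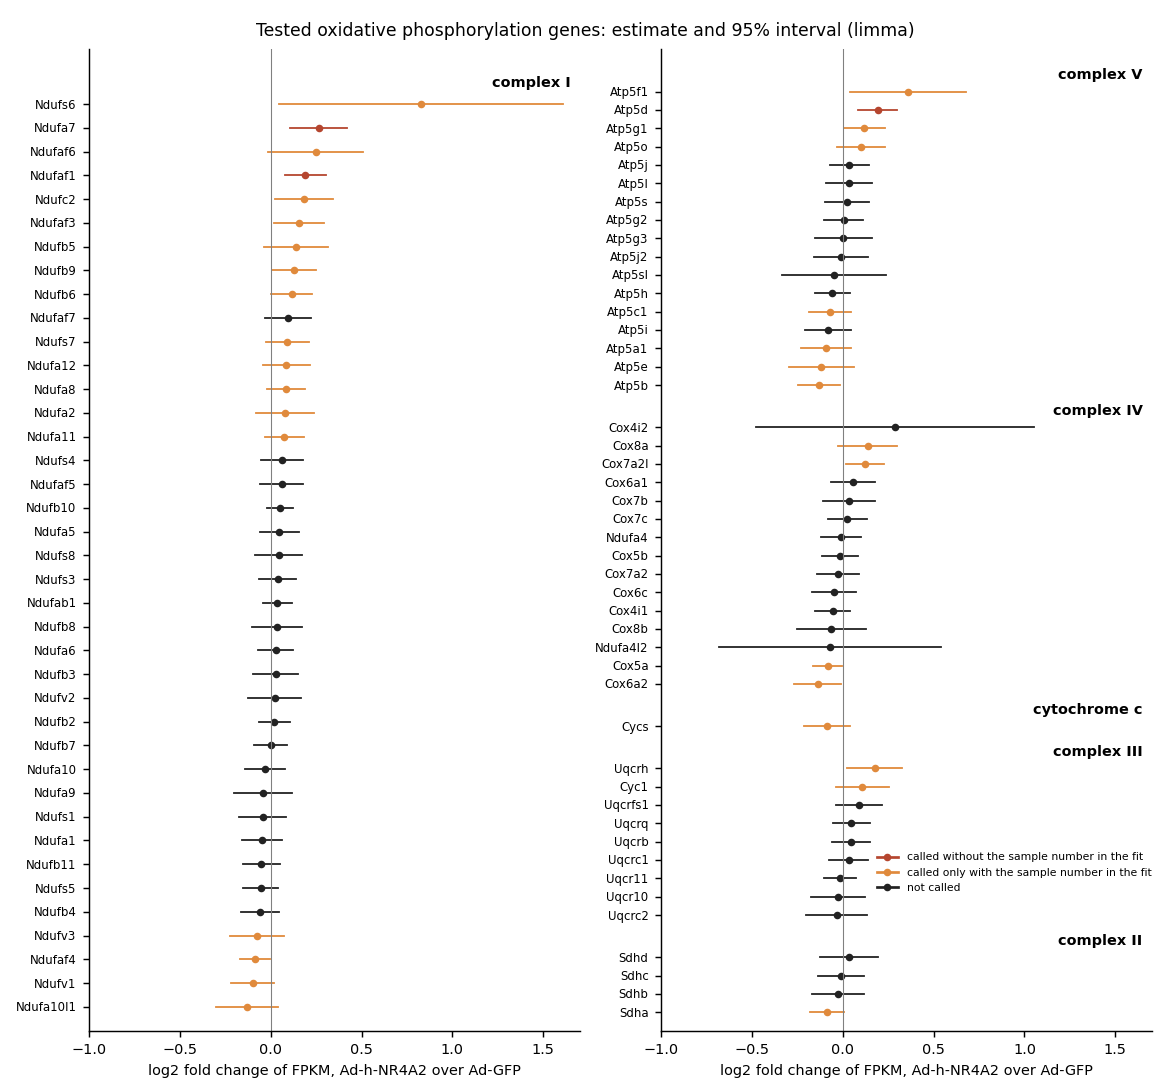
Log2 fold change (points) and 95% interval (lines) of the tested genes in limma (1 is not shown), by complex and ordered by size within each. The 3 genes called without the sample number in the fit are in red, the 31 called with it and not in the fit without it are in orange, and the other genes are in black; most intervals cross 0 or end close to it.

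The sequence before the start of transcription is shown for 6 members, from the RefSeq promoter table of build GRCr8, which is not the build of the FPKM tables. Ndufa7 (chr7:15311196-15311445, plus strand), Ndufaf1 (chr3:127104021-127104270, minus strand) and Atp5d (chr7:10214351-10214600, minus strand, named Atp5f1d there) are the genes that rose. Cox6a2 (chr1:192219717-192219966, minus strand) is the largest fall with the sample number in the fit at usable depth. Atp5g3 (chr3:79220665-79220914, minus strand, Atp5mc3) and Atp5o (chr11:44657484-44657733, minus strand, Atp5po) hold matches to motifs of nuclear receptors. Each run gives the 250 bases before the start, 5′ to 3′ on the strand of the gene. Capitals mark any match to NBRE AAAGGTCA, to which NR4A2 binds, its half-site AGGTCA, ERRE TCAAGGTCA, the NRF1 core GCGCATGC or YY1 AAGATGGCG, on either strand.
Ndufa7: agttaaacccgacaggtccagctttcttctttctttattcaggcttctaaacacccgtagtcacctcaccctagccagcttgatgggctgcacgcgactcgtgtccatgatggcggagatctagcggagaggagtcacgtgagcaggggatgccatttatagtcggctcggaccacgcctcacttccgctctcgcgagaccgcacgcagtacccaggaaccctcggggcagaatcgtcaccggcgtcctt
Ndufaf1: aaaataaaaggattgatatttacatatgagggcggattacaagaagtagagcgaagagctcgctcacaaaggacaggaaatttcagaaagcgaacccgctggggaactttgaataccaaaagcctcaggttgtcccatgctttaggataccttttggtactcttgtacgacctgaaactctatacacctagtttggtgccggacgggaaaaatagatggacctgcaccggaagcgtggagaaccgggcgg
Atp5d: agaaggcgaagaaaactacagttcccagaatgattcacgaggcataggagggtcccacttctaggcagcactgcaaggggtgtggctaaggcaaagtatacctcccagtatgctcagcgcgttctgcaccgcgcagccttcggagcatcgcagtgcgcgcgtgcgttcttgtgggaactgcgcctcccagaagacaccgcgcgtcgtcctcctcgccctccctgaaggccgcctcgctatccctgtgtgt
Cox6a2: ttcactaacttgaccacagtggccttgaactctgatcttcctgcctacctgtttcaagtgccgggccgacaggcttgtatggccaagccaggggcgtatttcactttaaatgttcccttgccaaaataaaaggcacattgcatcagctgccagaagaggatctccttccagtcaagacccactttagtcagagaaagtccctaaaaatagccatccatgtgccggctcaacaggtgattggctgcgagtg
Atp5g3: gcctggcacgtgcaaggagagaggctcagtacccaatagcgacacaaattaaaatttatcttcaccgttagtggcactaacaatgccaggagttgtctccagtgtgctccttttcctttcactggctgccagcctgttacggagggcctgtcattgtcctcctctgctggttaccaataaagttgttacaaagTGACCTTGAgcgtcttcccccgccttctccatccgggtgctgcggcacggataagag
Atp5o: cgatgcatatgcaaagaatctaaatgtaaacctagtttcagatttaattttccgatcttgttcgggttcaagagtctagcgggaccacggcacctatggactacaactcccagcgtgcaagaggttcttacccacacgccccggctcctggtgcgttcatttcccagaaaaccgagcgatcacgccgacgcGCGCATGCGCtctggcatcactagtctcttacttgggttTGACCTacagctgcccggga

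No capitals stand in the runs of the 3 genes that rose or of Cox6a2. Atp5g3 held an ERRE on the reverse strand with its first base 57 bases before the start, and its half-site is part of it. Atp5o held overlapping NRF1 cores on both strands and a half-site on the reverse strand 20 bases before the start. Of the 89 genes, 75 were matched to 1 window of 300 bases each (250 before and 50 after the start), and the other 14 are not in this count. None of the 75 windows held NBRE, which 1.43% of all 33465 windows in the table hold. The half-site, also part of NBRE and ERRE, was in 29.3% of the members' windows and 16.2% of all. ERRE was in 2 (Atp5g3 and Sdhd; 2.67% and 0.433%), the NRF1 core in 12 (16.0% and 2.47%) and YY1 in 10 (13.3% and 1.73%). A match is a run of letters and not a site shown to be bound.

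Complex I was represented by 40 genes, of which 2 rose and none fell, beside 19.3% and 21.7% of all genes. The median log2 fold change of the 40 was 0.04, and 27 were above 0. Ndufa7, an accessory subunit of the enzyme (Rn5 chr7:18861153-18873932), showed the largest of the called changes. It measured 581, 661 and 725 FPKM (lowest, median, highest) in Ad-GFP samples and 669, 811 and 868 FPKM in Ad-h-NR4A2 samples. The groups overlapped through samples 24 and 28, which were the lowest of both groups, yet each of the 6 pairs rose. The log2 fold change was 0.26 ± 0.07 (SE, n = 6 per group; limma adjusted p = 0.0111), a mean 20.3% higher, and the adjusted p was 1.73e-05 with the sample number in the fit.

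Ndufaf1, a chaperone that helps to build the membrane arm of complex I (Rn5 chr3:118007327-118017688), was low beside the complex I median of 523 FPKM. It measured 33.4, 35.0 and 37.8 FPKM in Ad-GFP samples and 37.2, 39.9 and 45.2 FPKM in Ad-h-NR4A2 samples, from 847 to 1515 fragments per sample. A single Ad-h-NR4A2 sample (28) fell inside the Ad-GFP range. The log2 fold change was 0.19 ± 0.05 (limma adjusted p = 0.00937), in the same direction in 6 of 6 pairs. Of the other assembly factors of complex I, Ndufaf6 rose from 20.6 ± 2.96 to 24.6 ± 4.0 FPKM (SD, n = 6) and Ndufaf3 from 46.3 ± 4.52 to 51.4 ± 3.01 FPKM with the sample number in the fit (limma adjusted p = 0.00118 and 0.0114). Ndufaf4 fell in that fit by 0.09 on the log2 scale (adjusted p = 0.0295). Without the number, Ndufaf3 rose after median ratio scaling and Ndufaf4 fell after quantile normalization (limma adjusted p = 0.0301 and 0.0357). Ndufaf5 and Ndufaf7 passed neither with nor without the number.

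The catalytic core of complex I showed no call without the sample number, and 1 call in each direction with it. Over all genes, 40.9% were called without the number and 59.4% with it. Ndufs1, the large iron-sulfur subunit, measured 674, 732 and 840.1 FPKM in Ad-GFP samples and 644, 719 and 811 FPKM in Ad-h-NR4A2 samples. These ranges nearly coincide, and the log2 fold change was -0.04 with a 95% interval from -0.18 to 0.09 (limma adjusted p = 0.594). Ndufv1, which binds NADH and FMN, measured 893, 932 and 1073 FPKM against 814, 877 and 965 FPKM. It was lower in 6 of 6 pairs, by 0.10 ± 0.06 on the log2 scale (adjusted p = 0.170 without and 0.0081 with the sample number in the limma fit). The iron-sulfur subunit Ndufs7 was higher in 6 of 6 pairs, at 457 ± 31.4 and 487 ± 32.9 FPKM (adjusted p = 0.206 and 0.0101). Of the other core genes, Ndufs3, Ndufs8 and Ndufv2 passed in neither fit, with log2 fold changes between 0.02 and 0.04.

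Among the 26 accessory subunits, 10 rose and 1 fell with the sample number in the fit (42.3% called, beside 59.4% of all genes, 27.1% upward and 32.3% downward). The upward calls were Ndufa7, Ndufc2, Ndufb5, Ndufb9, Ndufb6, Ndufa12, Ndufa8, Ndufa2, Ndufa11 and Ndufs6, and the downward call was Ndufv3. Ndufc2 was the largest of these after Ndufa7 at usable depth, with 345 ± 29.9 and 393 ± 39.3 FPKM and a log2 fold change of 0.18 (limma adjusted p = 0.0626 without and 0.000298 with the number). The Ndufs6 row stood at 1.5 ± 0.886 and 2.33 ± 0.388 FPKM, far below the complex I median of 523 FPKM. Its listed transcript of 352 nucleotides spans 415 bases of the genome, so that its reads may come from a copy and its log2 fold change of 0.83 is uncertain. Ndufa10 and Ndufa10l1 are listed in 1 shared locus and cannot be told apart with certainty. Ndufa10l1 fell by 0.13 on the log2 scale in the fit with the number (adjusted p = 0.00951), and Ndufa10 stood at 295 ± 21.7 and 288 ± 14.4 FPKM (adjusted p = 0.637 and 0.270).

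**Figure D3:**
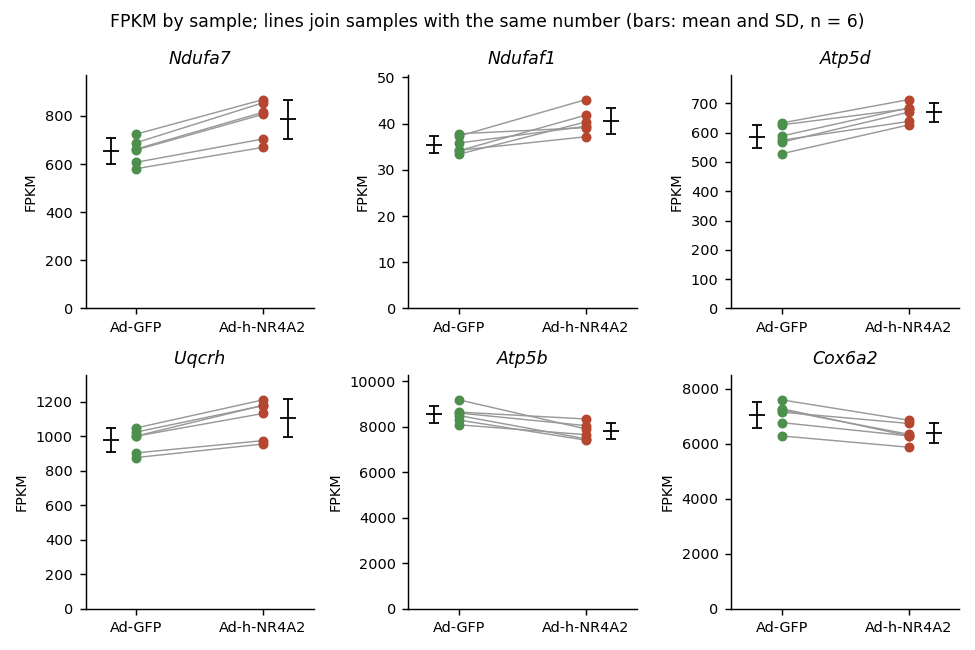
FPKM (y axis, from 0) of 6 genes in each of the 12 samples, with grey lines joining samples of the same number and black bars showing the mean and SD of 6 samples. Ndufa7, Ndufaf1, Atp5d and Uqcrh were higher and Atp5b and Cox6a2 lower in 6 of 6 pairs, while the groups overlapped for each of them.

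Complex II, which also serves the citric acid cycle, had 4 genes and no call without the sample number (40.9% of all genes were called). The median log2 fold change of the 4 was -0.02. Sdha, the flavoprotein that oxidises succinate, stood at 991 ± 48.5 FPKM in Ad-GFP samples and 933 ± 44.2 FPKM in Ad-h-NR4A2 samples (SD, n = 6). It was lower in 6 of 6 pairs by 0.09 ± 0.04 (log2 fold change and SE), with a limma adjusted p of 0.132, and 0.0174 with the sample number in the fit. Its iron-sulfur partner Sdhb stood at 918 ± 67.8 and 903 ± 85.9 FPKM (adjusted p = 0.790 and 0.400). The membrane anchors Sdhc and Sdhd had log2 fold changes of -0.01 and 0.04, and all 4 intervals lay within 1.2-fold.

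Complex III had 9 genes and no call without the sample number (40.9% of all genes were called). The median log2 fold change of the 9 was 0.04. Uqcrh, the hinge protein that holds cytochrome c1, came closest. It measured 876, 1000.4 and 1048 FPKM in Ad-GFP samples and 954, 1154 and 1210.1 FPKM in Ad-h-NR4A2 samples. The upper 4 samples of the Ad-h-NR4A2 group exceeded every Ad-GFP sample, whereas samples 24 and 28 were low in both groups. The log2 fold change was 0.18 ± 0.07 (limma adjusted p = 0.0622), and the adjusted p was 0.00031 with the number in the fit. Cyc1, cytochrome c1 itself, was higher in 6 of 6 pairs, with 883 ± 71.8 and 952 ± 82.8 FPKM (adjusted p = 0.227 and 0.0129). Uqcrfs1, the Rieske iron-sulfur protein, measured 1295, 1362 and 1531 FPKM against 1288, 1479 and 1636 FPKM and was higher in 5 of 6 pairs (adjusted p = 0.255 and 0.0520). The other 6 genes had log2 fold changes between -0.03 and 0.05. Uqcr10 is listed with a transcript of 180 nucleotides, close to the length that the FPKM calculation takes off, so that its level of 7400 FPKM is not comparable with that of other genes.

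Cycs, the mobile carrier between complexes III and IV, measured 507, 589 and 636 FPKM in Ad-GFP samples and 483, 556 and 574 FPKM in Ad-h-NR4A2 samples. It was lower in 6 of 6 pairs by 0.09 ± 0.06 on the log2 scale (limma adjusted p = 0.252, and 0.0141 with the sample number in the fit). Cycs also fell without the number after quantile normalization (limma adjusted p = 0.0405).

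Complex IV had 15 genes tested of 18 and no call without the sample number (40.9% of all genes were called). The median log2 fold change of the 15 was -0.01. Cox6a2, the form of subunit VIa found in heart and skeletal muscle, measured 6278.5, 7181 and 7589 FPKM in Ad-GFP samples and 5871, 6311 and 6852 FPKM in Ad-h-NR4A2 samples. It was lower in 6 of 6 pairs by 0.14 ± 0.06 on the log2 scale (limma adjusted p = 0.0810), and fell with the number in the fit (adjusted p = 0.00445). It also fell without the number on the TPM scale and with a minimum mean of 1 FPKM (limma adjusted p = 0.0185 and 0.0419). The same held without Ad-GFP sample 28 (limma adjusted p = 0.0332). The groups overlapped, and sample 28 was the lowest of both. A noncoding transcript is listed in the same locus, and reads may be shared between both. Its counterpart Cox6a1, found in most tissues, measured 557, 656 and 669.5 FPKM against 606, 661 and 687 FPKM (adjusted p = 0.451 and 0.118). The subunit Cox5a stood at 2041 ± 43.7 and 1927 ± 61.7 FPKM and fell with the number in the fit (adjusted p = 0.0922 without and 0.0333 with it) and on the TPM scale without it (adjusted p = 0.0445). Cox7a2l, which joins complexes III and IV in supercomplexes, stood at 166 ± 8.92 and 181 ± 10.8 FPKM and rose with the number (adjusted p = 0.0568 without and 0.000971 with it) and under median ratio scaling without it (adjusted p = 0.0269). Cox4i1, a large nuclear subunit, stood at 3500.3 FPKM at the median of Ad-GFP samples and 3326 FPKM at that of Ad-h-NR4A2 samples (adjusted p = 0.361 and 0.156). After quantile normalization Cox4i1 fell without the number (limma adjusted p = 0.0440).

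Some isoforms of complex IV were near 0. Cox4i2, a form of subunit IV known from lung and low oxygen, stood at 0.555 ± 0.258 and 0.731 ± 0.365 FPKM, from 3 to 17 fragments per sample. Ndufa4l2 stood at 0.464 ± 0.195 and 0.438 ± 0.206 FPKM. Cox6c-ps1 was listed at 0 in all 12 samples, and Cox6b2 and Cox8c, both known from testis, were listed at 0 in most samples and held 1 fragment at most in the others. These 3 genes were not tested.

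Ratios between isoforms of a subunit were compared in the 12 samples, by exact permutation tests over 924 arrangements with a smallest p of 0.00216. The p-values were adjusted over the 7 ratios. The muscle form Cox6a2 exceeded Cox6a1 by 11.3 ± 0.854 times in Ad-GFP samples and 9.82 ± 0.658 times in Ad-h-NR4A2 samples (SD, n = 6). The ratio was lower in 6 of 6 pairs, by 0.20 on the log2 scale (two-sided exact p = 0.00866, adjusted p = 0.0606). The muscle form Cox8b exceeded Cox8a, which rose with the sample number in the fit, by 7.36 ± 1.09 and 6.38 ± 0.789 times, again lower in 6 of 6 pairs (exact p = 0.154, adjusted p = 0.269). Of the 3 genes for subunit c, which encode the same mature protein, Atp5g1 to Atp5g2 gave 1.72 ± 0.0822 and 1.86 ± 0.0851 (exact p = 0.0216, adjusted p = 0.0758) and was higher in 6 of 6 pairs. Atp5g1 to Atp5g3 gave 1.11 ± 0.0914 and 1.21 ± 0.0799 (exact p = 0.0887, adjusted p = 0.207), and Atp5g2 to Atp5g3 gave 0.649 ± 0.0668 and 0.648 ± 0.0431 (exact p = 0.996). The ratios Cox4i1 to Cox4i2 and Ndufa4 to Ndufa4l2 had exact p-values of 0.439 and 0.848. None of the 7 passed after adjustment.

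**Figure D4:**
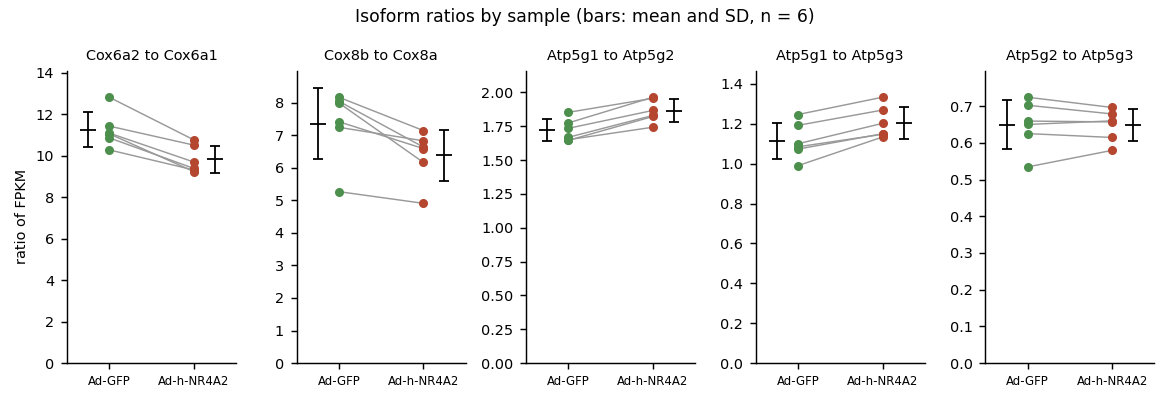
Ratio of the FPKM of 2 isoforms (y axis, from 0) in each of the 12 samples for 5 isoform pairs, with grey lines joining samples of the same number and bars showing mean and SD of 6 samples. Cox6a2 to Cox6a1 fell from a mean of 11.3 to 9.82 and Cox8b to Cox8a from 7.36 to 6.38, with all lines descending, while none of the differences passed after adjustment.

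Complex V had 17 genes, of which 1 rose and none fell, beside 19.3% and 21.7% of all genes. The median log2 fold change of the 17 was 0.00. The called gene was Atp5d, the delta subunit of the central stalk (Rn5 chr7:12596916-12600002). It measured 528, 581 and 633 FPKM in Ad-GFP samples and 626, 676 and 713 FPKM in Ad-h-NR4A2 samples. Sample 28 was the lowest of each group, and its Ad-h-NR4A2 value alone fell inside the Ad-GFP range. The log2 fold change was 0.19 ± 0.05 (n = 6 per group; limma adjusted p = 0.00758), with an adjusted p of 0.000156 when the sample number was in the fit.

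The other 4 genes of the F1 head and stalk, which carries out catalysis, were lower in 6 of 6 pairs each, and each fell with the number in the fit. Over all genes, 32.3% fell in that fit, and 53.2% moved one way in all 6 pairs. Atp5b, the catalytic beta subunit and the most abundant member, measured 8083, 8545 and 9178 FPKM in Ad-GFP samples and 7409, 7775 and 8339.9 FPKM in Ad-h-NR4A2 samples. The log2 fold change was -0.13 ± 0.05 with a 95% interval from -0.25 to -0.02 (limma adjusted p = 0.0641, and 0.00969 with the number). Without the number it fell on the TPM scale, with a minimum mean of 1 FPKM and without a trend in limma (adjusted p = 0.0196, 0.0213 and 0.0414). The highest Ad-h-NR4A2 sample (26) lay above the Ad-GFP samples 24 and 29. Atp5a1, the alpha subunit, measured 4208, 4251 and 5032 FPKM against 3956, 4031 and 4757 FPKM, and sample 25 was highest in both groups (adjusted p = 0.263 and 0.0246). Atp5c1, the gamma subunit, and Atp5e, the epsilon subunit, had log2 fold changes of -0.07 and -0.12 (adjusted p = 0.330 and 0.281, and 0.0384 and 0.00651 with the number). F1 thus held genes of both directions, with delta called upward in both fits.

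In the membrane part of complex V, Atp5g1 was higher in 6 of 6 pairs, with 1617, 1818 and 1894 FPKM in Ad-GFP samples and 1753, 1964 and 2064 FPKM in Ad-h-NR4A2 samples (limma adjusted p = 0.0861, and 0.00307 with the sample number). Atp5g1 also rose without the number after quantile normalization (limma adjusted p = 0.0201). Atp5g2 and Atp5g3 had log2 fold changes of 0.00 each. Atp5o, which ties F1 to the peripheral stalk, had a log2 fold change of 0.10 (adjusted p = 0.214 and 0.0187). The Atp5f1 row stood at 1.68 ± 0.285 and 2.19 ± 0.457 FPKM and is listed at 2 loci with the same transcript, so that its value does not give the level of subunit b. It rose with the number in the fit (limma adjusted p = 0.0704 without and 0.0445 with it). The remaining 5 stalk and membrane subunits (Atp5h, Atp5i, Atp5j, Atp5j2 and Atp5l) and the 2 genes that only share the symbol passed in neither fit. Of these, Atp5h and Atp5i were lower in 6 of 6 pairs. Atp5i fell after quantile normalization without the number (log2 fold change -0.19, limma adjusted p = 0.00234).

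The summed FPKM of each complex differed between the groups by less than the SD, while the shares of complexes IV and V differed by more. The 89 genes together held 108744 ± 5327 FPKM in Ad-GFP samples and 107144 ± 5792 FPKM in Ad-h-NR4A2 samples (SD, n = 6), which is 15.1 ± 0.569% and 14.7 ± 0.479% of all FPKM listed. Complex I held 21660.2 ± 1071 and 22081 ± 1330 FPKM, complex II 3179 ± 191 and 3118 ± 209.9 FPKM, and complex III 14896 ± 876 and 15035 ± 1054 FPKM. Of complex III, 7473 (Ad-GFP) and 7327 (Ad-h-NR4A2) FPKM came from Uqcr10, whose level is not comparable with other genes. Complex IV held 33799.7 ± 1703 and 32743 ± 1802 FPKM, and complex V 34629.9 ± 1600.5 and 33623 ± 1525 FPKM. In summed FPKM, the difference of the means was below the SD of the samples for all 5 complexes. Between samples of the same number, the sum was lower in Ad-h-NR4A2 in 6 of 6 pairs for complex V, in 5 for complex IV, in 4 for complex II and in 1 each for complexes I and III. As a percent of all FPKM, complexes II, IV and V and the 89 genes together were lower in 6 of 6 pairs. Complex IV held 4.69 ± 0.179% in Ad-GFP samples and 4.48 ± 0.157% in Ad-h-NR4A2 samples. Complex V held 4.80 ± 0.173% and 4.60 ± 0.114%. For both complexes this difference was above the SD of either group. In bulk RNA, a lower share of myocytes and less RNA per myocyte cannot be told apart.

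**Figure D5:**
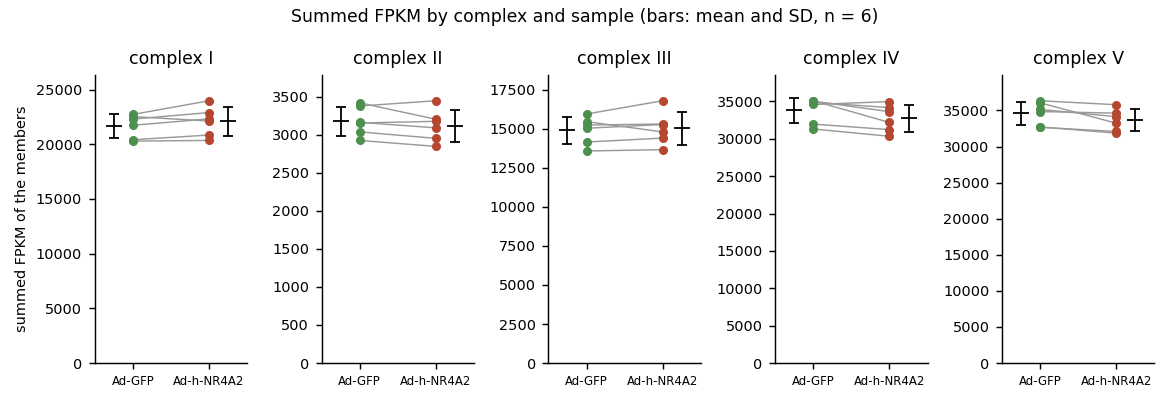
Summed FPKM of the members (y axis, from 0) by complex in each of the 12 samples, with grey lines joining samples of the same number and bars showing mean and SD of 6 samples. In each complex the SD bars of the groups overlap, and samples of a number often lie near each other across the groups. Number 27 lay further apart in complex IV (35076 FPKM in Ad-GFP, 32174 FPKM in Ad-h-NR4A2) and complex V (36060 and 33232 FPKM).

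These genes shifted together with the sample number in most pairs. Deviations were taken from a gene's own mean over all 12 samples, for the 82 members with a mean of at least 10 FPKM. Their median was -0.07 on the log2 scale in Ad-GFP sample 24 and -0.08 in Ad-h-NR4A2 sample 24. It was -0.10 and -0.08 in samples 28, and 0.05 and 0.12 in samples 25. Number 27 differed, at 0.06 in Ad-GFP (63 of 82 genes above their own mean) and -0.0018 in Ad-h-NR4A2 (41 of 82). In samples 28, 76 and 73 of the 82 genes lay below their own mean over the 12 samples. The median difference within a pair ranged from -0.03 in pair 27 to 0.06 in pair 25, with 30 of 86 genes higher in Ad-h-NR4A2 in pair 27 and 64 of 86 in pair 25. Across the 82 genes the log2 fold change fell with the mean level (Spearman rho -0.41), and it showed little relation to transcript length (rho 0.03). Both values describe genes of the same libraries.

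Genes next to oxidative phosphorylation were read from 3 lists. Of 32 tested assembly factors of the complexes with other symbols, 9 rose and 2 fell, beside the 19.3% and 21.7% of all genes, and 12 rose and 7 fell with the sample number in the fit (27.1% and 32.3% of all genes). Nubpl, which delivers iron-sulfur clusters to complex I, rose from 8.47 ± 1.08 to 18.0 ± 3.40 FPKM (log2 fold change 1.07). Atpaf1, an assembly factor of F1, rose from 17.9 ± 1.4 to 24.1 ± 2.66 FPKM, and Cox18, which inserts a complex IV subunit in the membrane, from 14.1 ± 0.866 to 18.5 ± 1.47 FPKM. The 2 that fell were Acad9, which acts in complex I assembly, by 0.21 on the log2 scale and Coa5 by 0.13. Of 17 genes of the citric acid cycle and pyruvate dehydrogenase, only Suclg2, a subunit of succinyl-CoA ligase, was called, beside 40.9% of all genes. Suclg2 fell by 0.11 on the log2 scale (limma adjusted p = 0.0483). With the sample number in the fit, 2 of the 17 rose and 9 fell, beside 27.1% and 32.3% of all genes. Of 7 genes for ATP export and ATP synthase inhibition, 2 rose and none fell, beside 19.3% and 21.7% of all genes. With the number 3 rose and 2 fell, beside 27.1% and 32.3% of all genes. The 2 called without the number were the outer membrane channels Vdac2, from 374 ± 19.1 to 445 ± 29.8 FPKM, and Vdac3, from 689 ± 26.6 to 756 ± 25.7 FPKM.

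Cell type markers moved in part with the groups, and are read beside the 19.3% of all genes that rose and the 21.7% that fell. Of 6 cardiomyocyte markers, Myh6, Myh7, Tnnt2 and Ryr2 fell and none rose, and their summed level was 17687.5 to 22842 FPKM in Ad-GFP samples and 15658 to 19261 FPKM in Ad-h-NR4A2 samples. Of 5 tested fibroblast markers, Col3a1 fell and the others were not called (9.04 to 30.1 FPKM and 5.80 to 26.4 FPKM in sum), and Col1a2 was listed at 0. No endothelial marker of 5 was called (5.47 to 17.1 and 4.39 to 16.2 FPKM), and of 3 smooth muscle markers Myh11 fell (7.04 to 20.2 and 6.83 to 16.5 FPKM). Of 3 tested macrophage markers, Csf1r and Cd14 rose, while Cd68 was not called and Ptprc was listed at 0.0489 FPKM at most (6.06 to 17.3 and 38.9 to 45.4 FPKM in sum). With the sample number in the fit, 5 cardiomyocyte, 3 fibroblast, 1 endothelial and 1 smooth muscle markers fell, beside 32.3% of all genes. In that fit 2 macrophage markers rose, beside 27.1% of all genes. The part of these markers in the results for the oxidative phosphorylation genes was not tested.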

How the data were processed

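RNA of 12 ARVM samples (6 Ad-GFP, 6 Ad-h-NR4A2) was made into stranded mRNA libraries that were pooled and sequenced paired-end in 1 run. The authors aligned reads with STAR to the rat genome Rn5 with RefSeq transcripts and computed FPKM with Cufflinks, and the deposited tables hold this FPKM per transcript. FPKM are not counts, so no count model was used. Low values were whole multiples of 1 fragment within 0.1 for at least 99.3% of them, which gave the depth of 18800000 to 28000000 fragments per sample. The paper describes 6 independent experiments with ARVMs from different rats. The labels do not tie a sample number to a rat, so p-values measure the spread between these samples.

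The transcript of highest mean FPKM stood for a gene. Genes above 0 in all 12 samples (10950) were fitted with limma 3.58.1 (R 4.3.3) with a trend on log2(FPKM + 0.1), which understates changes of low genes, and p-values were adjusted by Benjamini-Hochberg over all of them. Of 225024 values, 8 had failed in Cufflinks, none of a member. Samples of the same number deviated together from their group means (r from 0.347 to 0.623 in 6 pairs). Its meaning is not given in the labels, so the fit with the number as a replicate block is given beside the fit without it. Exact permutation tests and summaries used Python 3.11.15, SciPy 1.17.1 and pandas 2.3.3. The scripts were tested on simulated data.

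Named were Nr4a2, per complex the members past both call rules and then up to 4 further with an adjusted p below 0.05 by size of change, catalytic subunits, isoform pairs, members not tested and up to 3 called genes per related list. The members and lists were chosen with earlier results of these data known. Alternatives were other pseudocounts (1 and 0.01), a minimum mean of 1 FPKM, TPM, quantile and median ratio scaling, no trend, the block, subunits only and each sample left out. The limits of 10 and 100 FPKM and the isoform ratios were added after seeing the data. The values of 1 member are not reported here, although counts and sums include it.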

Additional observations from a re-analysis of the deposited data

Results flagged for a closer look

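Among 88 groups of 6 values of the named genes and isoform ratios, 4 had a sample that stood apart by Dixon's criterion (gap to the nearest sample over the range), while chance gives about 1 in 20. Atp5a1 was highest in Ad-h-NR4A2 sample 25 (4757 FPKM, the others from 3956 to 4161 FPKM, gap 0.744). Cox8c was listed at 0.138 FPKM in Ad-GFP sample 25 and at 0 in the others of that group (gap 1), which is 1 fragment. The ratio of Cox8b to Cox8a was lowest in Ad-GFP sample 24 (5.27, the others from 7.25 to 8.17, gap 0.681). The ratio of Cox4i1 to Cox4i2 was highest in Ad-GFP sample 27 (16119, the others from 3665 to 8281, gap 0.629), and rests on few fragments of Cox4i2.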

How the results depend on the processing

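The 3 upward calls and 0 downward calls among 86 members depended on the fit. With the replicate block, which uses the pairing of samples by number, 22 members rose and 12 fell: 14 and 4 in complex I, 0 and 1 in complex II, 2 and 0 in complex III, 2 and 2 in complex IV, and 4 and 4 in complex V. Over all genes tested, 27.1% rose and 32.3% fell with the block. The calls that the block changed stand beside the results. A minimum mean of 1 FPKM gave 2 falls (1 in complex IV, 1 in complex V), and limma without a trend 1 fall (complex V). On the TPM scale 4 fell (1 in complex II, 2 in IV and 1 in V) and complex III had 1 rise. After quantile normalization 5 rose and 5 fell (complex I 1 fall, II 1 fall, III 1 rise, IV 1 fall, V 2 rises and 1 fall), and the median log2 fold change of the members turned to -0.0109. Median ratio scaling gave 5 rises, 1 of them in complex IV. A ratio of means of at least 1.5 left 1662 of all genes (869 upward, 793 downward) and 0 members, so 0 in complex I and 0 in complex V. With subunits only, complex I had 1 rise.

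With each sample left out in turn, the members that rose numbered 3 to 10 and those that fell 0 to 1. Complex I had 2 to 5 rises, complex III 0 to 1, complex IV 0 to 1 rises and 0 to 1 falls, and complex V 1 to 3 rises. The highest number, 10, came without Ad-h-NR4A2 sample 28, and 7 without Ad-h-NR4A2 sample 24. It was 6 without Ad-GFP sample 27 and 5 without Ad-GFP sample 24, and the 1 fall came without Ad-GFP sample 28. The cause was not tested. For 26 single members under the alternatives, 544 of 570 values stayed on their side of the threshold, and 26 passed it that had not before. In 7 members the sign changed in 29 values, none past the threshold, with a size of 0.0858 at most. Depth limits Cox4i2, Ndufa4l2, Ndufs6 and Atp5f1.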
